A study of Mus musculus with 20 samples.

Results

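The genes described here encode nuclear receptors and transcription factors of families best known from embryonic development, followed through the differentiation of 3T3-L1 cells into fat cells. They were chosen by name and not by their values: every gene whose sole symbol in the array annotation was of the form Nr plus digit, letter and digit, or began with Rara, Rarb, Rarg, Rxr, Thra, Thrb, Hox, Fox plus a letter, Sox, Klf, Gata plus a digit, Tead, Prrx, Maf, Pbx, Meis or Ebf. Klf4 and Nr4a1 were left out. This gave 108 of the 6137 genes with a symbol of their own on the arrays: 22 nuclear receptors, 27 Hox, 19 Fox, 12 Sox, 6 Gata, 5 Klf, 4 Tead, 3 Maf, 3 Meis, 3 Ebf, 2 Pbx and 2 Prrx genes. A pair of names entered by spelling alone, namely Thrap3, which encodes a thyroid receptor-associated protein and not a receptor, and Hoxa11os, an antisense transcript at the Hoxa11 locus.

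3T3-L1 is a mouse fibroblast line that turns into lipid-filled adipocytes when confluent cultures receive an inducing mixture. All samples came from this 1 line, and differentiation was induced with the MDI protocol, whose usual components are insulin, isobutylmethylxanthine and dexamethasone, a ligand of the glucocorticoid receptor. RNA was measured on 2 Affymetrix array types, A and B, at 10 time points, each with a single sample on either type. The samples were grouped into stages: before induction (preconfluent and confluent cells), early (6, 12 and 24 hours), middle (days 2 and 3) and late (days 4, 7 and 28). The labels name no uninduced culture kept alongside, so time in culture and induction cannot be told apart, and p-values measure only the spread between neighbouring times of 1 course.

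Nuclear receptors are proteins that bind DNA and change transcription when a small lipid-soluble ligand such as a steroid, a retinoid or thyroid hormone binds them, although several are orphans with no settled ligand. Many act as pairs with a retinoid X receptor, among them Pparg, the master regulator of fat cell formation. Hox, Pbx, Meis and Prrx proteins carry a homeodomain and give cells of the embryo positional or mesenchymal identity, while Gata, Sox, Fox, Klf, Tead, Maf and Ebf proteins use other DNA-binding folds.

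Values are array intensities on a linear scale. A matching minus a mismatched probe can give a value below 0, so before log2 was taken lower values were raised to a floor, which was 137 for array A and 156 for array B. Tests covered the probe sets with 2 or more of their 10 values above a limit of 182 (array A) or 156 (array B). A gene with several probe sets was read by the one with the highest mean. A call is a limma p-value adjusted by the Benjamini-Hochberg method over all 7582 tested probe sets that lies below 0.05. Stage changes are log2 differences of stage means ± SE from 6 residual degrees of freedom before limma's pooling. Where the dimmer stage held a sample at the floor, the fold is a lower bound and is given as "at least". Different probe sets are not compared in level.

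Of the 108 genes, 59 passed the limit (54.6%), against 66.9% of all 6137 genes. The 49 that did not pass are named further on. A gene that passed only through the stage in which it is high had to differ between stages, so the counts below describe the 59 and are no evidence about the 108. Changes in these bulk RNA samples do not tell fewer cells of a type from less RNA per cell.

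The sequences of 3 promoters are shown because their genes fell in the late stage and have exactly 1 start in the RefSeq table used (GRCm38.p6). They are the mesenchymal homeobox genes Prrx2 and Prrx1 and the SRY-box gene Sox4. Each window runs from 250 bases before to 50 bases after the annotated start and is written 5′ to 3′ on the strand of the gene. Prrx2 lies at chr2:30845117-30845416 on the plus strand, Prrx1 at chr1:163313601-163313900 on the minus strand and Sox4 at chr13:28953650-28953949 on the minus strand. Capitals mark 4 motifs searched on both strands: the GC box GGGCGG, the CCAAT box CCAAT, the TATA box TATAAA and the C/EBP motif TTGCNNAA.
Prrx2: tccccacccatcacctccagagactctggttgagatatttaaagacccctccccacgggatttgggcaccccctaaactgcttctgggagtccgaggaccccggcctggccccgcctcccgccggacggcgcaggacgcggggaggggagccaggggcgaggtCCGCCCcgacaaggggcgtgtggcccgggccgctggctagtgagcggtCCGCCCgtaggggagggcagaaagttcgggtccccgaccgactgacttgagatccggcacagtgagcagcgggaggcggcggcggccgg
Prrx1: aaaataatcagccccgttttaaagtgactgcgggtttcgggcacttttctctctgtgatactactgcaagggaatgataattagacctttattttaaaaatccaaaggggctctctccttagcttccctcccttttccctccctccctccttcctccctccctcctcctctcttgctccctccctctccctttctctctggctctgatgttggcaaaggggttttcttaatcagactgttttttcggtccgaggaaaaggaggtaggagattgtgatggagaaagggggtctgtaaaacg
Sox4: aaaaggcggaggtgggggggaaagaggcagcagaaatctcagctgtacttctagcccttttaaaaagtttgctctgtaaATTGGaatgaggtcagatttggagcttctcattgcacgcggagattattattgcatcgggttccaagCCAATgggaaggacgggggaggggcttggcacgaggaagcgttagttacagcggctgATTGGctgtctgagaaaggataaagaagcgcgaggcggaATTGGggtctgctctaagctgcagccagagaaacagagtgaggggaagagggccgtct
The Prrx2 window held 2 GC boxes, a motif found in 35.7% of all 32851 promoter windows of the same length. The Sox4 window held 4 CCAAT boxes, found in 37.4% of all windows, and the Prrx1 window held none of the 4 motifs. TATAAA and TTGCNNAA, which lie in 13.6% and 10.8% of all windows, were in none of the 3. The GC content was 70.3% in Prrx2, 47.7% in Prrx1 and 52.0% in Sox4, against a median of 52.7% over all windows. Among motifs of the families described here, the nuclear receptor motif AGGTCA occurred 1 time in Sox4 (16.3% of all windows hold it). The TEAD motif GGAATG occurred 1 time each in Prrx1 and Sox4 (14.7% of all windows), and the homeodomain motif TAATTA 1 time in Prrx1 (5.29% of all windows). These matches describe the letters and say nothing of binding.

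In the late stage, 6 of the 59 tested genes fell relative to cells before induction and 1 rose. The 6 were Prrx2, Gata2, Tead3, Sox4, Pbx3 and Prrx1. The 1 was Hoxb6, which passed the limit only through its late values and so had to differ. Of all tested probe sets 5.1% were called lower and 5.82% higher, 10.9% in either direction, while the shares among the 59 genes were 10.2% lower, 1.69% higher and 11.9% in either direction. The median log2 change was -0.15 over the 59 genes and -0.05 over all tested probe sets. A value below 0 was found for 36 of the 59 (61.0%) and for 53.4% of all tested probe sets. The total share called thus lay close to that of all probe sets. At an unadjusted p under 0.05 the shares were 22.0% (13 of the 59) and 25.1%. Calls rested in large part on the samples before induction. Without the preconfluent sample 3 genes were called, all among the 7. Without the confluent sample 5 were called, of which 2 were among the 7: Gata2, Pbx3, Prrx1, Sox4 and Tead3 were lost, and Klf10, Maf and Nr2f1 were gained. Without day 7, 4 were called, all among the 7. With the floor set at 0.5 times its value 7 genes were called, of which 4 were the same: Gata2, Prrx1 and Tead3 were lost, and Klf10, Nr2f1 and Nr2f2 were gained.

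Against the early stage, 7 of the 59 fell in the late stage, namely Prrx2, Sox4, Meis1, Pbx3, Klf10, Foxc2 and the orphan receptor gene Nr2f2. Klf1, Nr2c2 and Hoxb6 rose, the last having passed the limit only through its late values. Calls in either direction covered 16.9% of the 59 genes and 13.7% of all tested probe sets, of which 6.54% were lower and 7.16% higher. At an unadjusted p under 0.05 the shares were 28.8% (17 of the 59) and 27.9%. The test of any smooth change along the 10 time points called 12 of the 59 (20.3%), against 16.8% of all tested probe sets. At an unadjusted p under 0.05 this test took in 23 of the 59 (39.0%) and 32.3% of all tested probe sets. Its calls were Prrx2, Prrx1, Sox4, Gata2, Tead3, Pbx3, Meis1, Foxc2, Foxo3, Hoxb6, Nr2f1 and Nr5a2. Late against early gave 4 calls without 12 hours, 24 hours or day 7, 5 without 6 hours, and 6 without day 2, 3, 4 or 28. The test along the course gave 6 without day 4 or day 7 and 7 without 12 hours, 24 hours or day 2. Of its calls, those of Tead3 and Foxc2 were lost in 7 of 10 fits that left out a sample, those of Prrx1 and Hoxb6 in 8 and that of Meis1 in 3. In all, 16 genes were called in at least 1 of the tests and 43 in none. The share of all tested probe sets called in at least 1 test was not worked out. Both counts are thus no result about the genes.

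**Figure D1:**
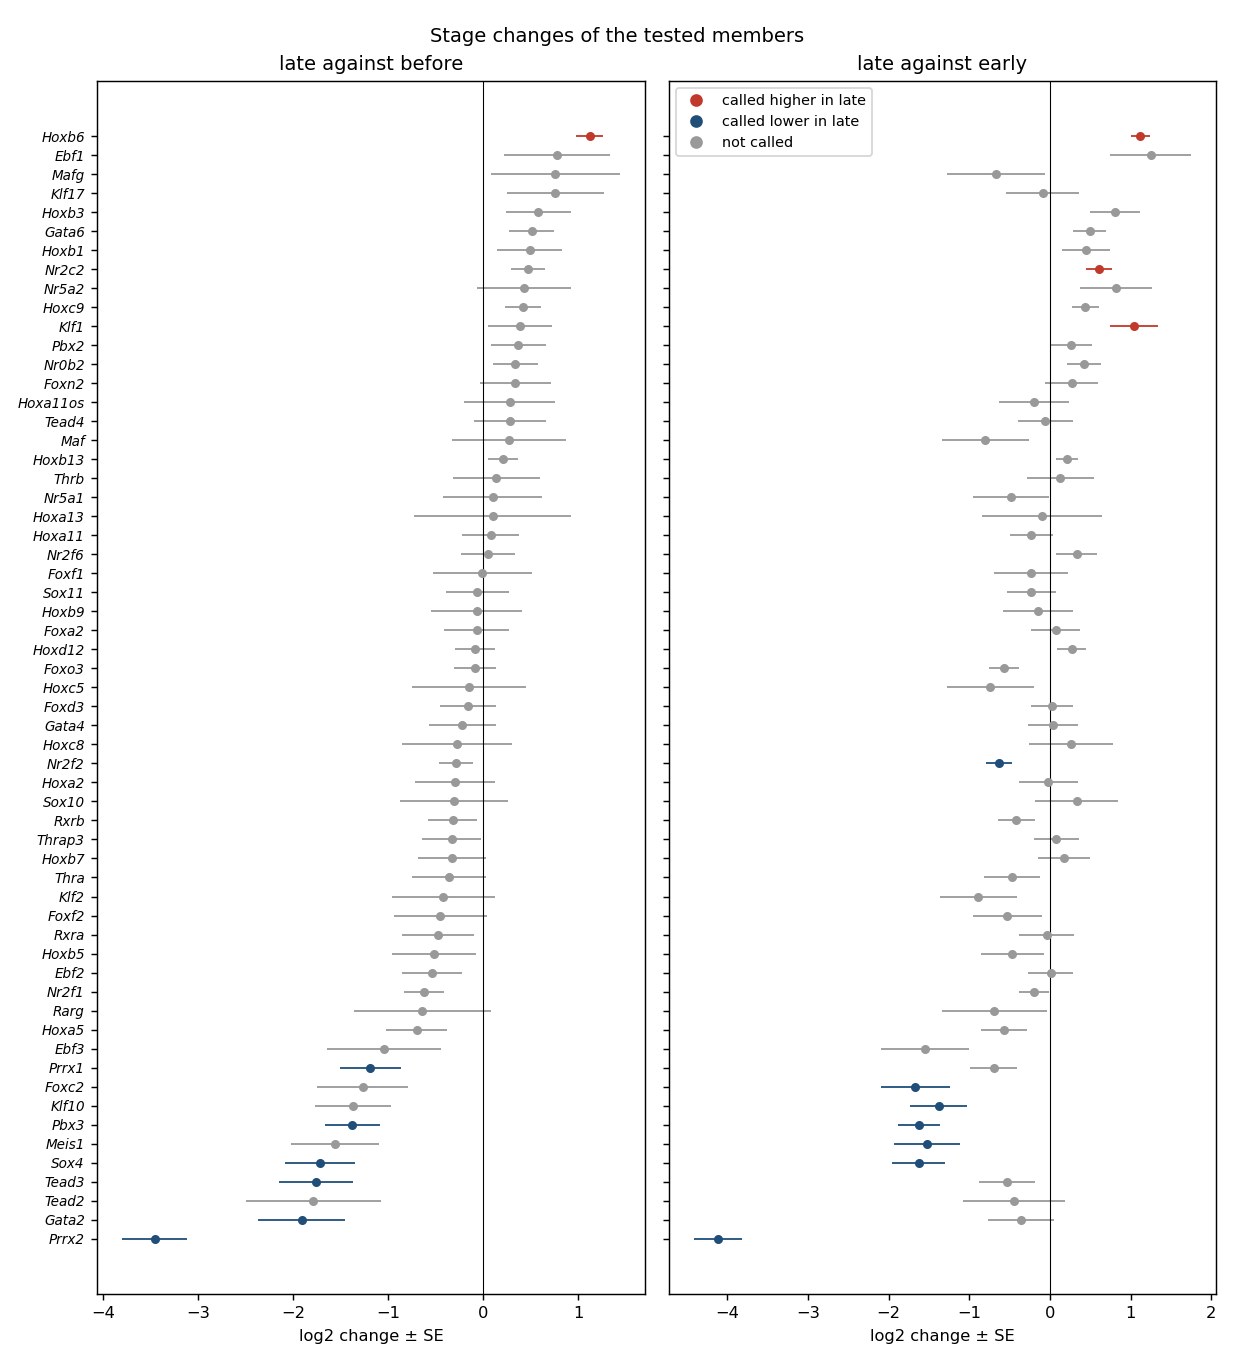
Log2 change ± SE (limma) of each of the 59 tested genes in late against before (left) and late against early (right), ordered by the left panel, with called genes in colour. Prrx2 stands at the bottom of both panels with -3.46 and -4.12, and Hoxb6 is the only gene called higher in both. Hoxb6 passed the limit only through its late values and its earlier values are tied at the floor, so its colour and SE are no evidence of a change.

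Prrx2, a homeobox gene of limb and face mesenchyme, showed the largest change of the 59 genes in both comparisons with the late stage. In early against before its log2 change was 0.66, with no call. Its intensity was 2350 and 1880 in preconfluent and confluent cells, 2630, 4750 and 2930 at 6, 12 and 24 hours, 1470 and 796 on days 2 and 3, and 218, 142 and 206 on days 4, 7 and 28. It was highest at 12 hours, and its late values lay below all earlier ones. The late stage was at least 10.9-fold lower than before induction (log2 -3.46 ± 0.34, limma adjusted p = 0.000917). It was at least 17.4-fold lower than the early stage (log2 -4.12 ± 0.30, limma adjusted p = 0.00021). The change along the course was called too (limma adjusted p = 0.00184), and all 3 calls held under each alternative processing tried.

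Its relative Prrx1, which marks mesenchymal progenitors in mouse tissues, also fell. Prrx1 read 466 and 370 before induction in preconfluent and confluent cells, 241, 337 and 316 at 6, 12 and 24 hours, 113 and 111 on days 2 and 3, and 147, 163 and 250 on days 4, 7 and 28. The late values lay below both values before induction, but day 28 overlapped the early values and both values of days 2 and 3 were under the floor. Late cells were 2.29-fold lower than before induction (log2 -1.19 ± 0.32, limma adjusted p = 0.0375), and late against early gave log2 -0.70 (limma adjusted p = 0.139). The call of late against before was lost without the preconfluent, confluent, 12 hour, day 2, day 3, day 4 or day 7 sample, with adjusted p up to 0.211 (limma, without the preconfluent sample). It was also lost with 0.5 times the floor (limma adjusted p = 0.0535), without the filter (0.0723) and in a fit of only the stages compared (0.117).

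Sox4, an SRY-box factor of embryonic progenitors, was read by a pair of probe sets that moved alike. The one with the higher mean read 2600 and 4730 in preconfluent and confluent cells, 3930, 2880 and 3180 at 6, 12 and 24 hours, 2250 and 1140 on days 2 and 3, and 782, 1270 and 1210 on days 4, 7 and 28. The other read 868 and 1380, then 1180, 812 and 727, then 685 and 197, and 2, 206 and 279 at the same times. In both, every late value lay below every value before induction and every early value. Late Sox4 was 3.30-fold lower than before induction (log2 -1.72 ± 0.37, limma adjusted p = 0.0224) and 3.11-fold lower than early (log2 -1.63 ± 0.33, limma adjusted p = 0.0157). The second probe set gave log2 -2.40 ± 0.51 for late against before (limma adjusted p = 0.02). Leaving out the confluent sample gave -1.29 for late against before (limma adjusted p = 0.127). That call was also lost without day 4, and the call of late against early without 6 hours (limma adjusted p = 0.0534). Without the filter neither passed (limma adjusted p = 0.0924 and 0.0703), and in a fit of only the stages compared late against before gave 0.0946.

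Gata2, a zinc-finger factor known to hold mouse preadipocytes in the undifferentiated state, was already low at 12 hours. It read 769 and 624 in preconfluent and confluent cells, 480, 159 and 176 at 6, 12 and 24 hours, 169 and 103 on days 2 and 3, and 221, 23 and 209 on days 4, 7 and 28. Every value after induction lay below both values before it, and from 12 hours on all were at or under 221. Late values averaged at least 3.69-fold lower than before induction (log2 -1.91 ± 0.46, limma adjusted p = 0.0234). Early against before gave log2 -1.54 ± 0.46, which did not pass (limma adjusted p = 0.256, unadjusted p = 0.00627), although it passed without the 6 hour sample (log2 -2.05, limma adjusted p = 0.047). The call of late against before was lost without the preconfluent (log2 -1.75, limma adjusted p = 0.133), confluent or day 7 sample. It was also lost with 0.5 times the floor (limma adjusted p = 0.0527) and without the filter (0.118). A second Gata2 probe set on the same array lay between -140 and 226 and did not pass the limit. Of the other Gata genes, Gata4 read between 324 and 637 and Gata6 between 255 and 469, and neither was called.

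**Figure D2:**
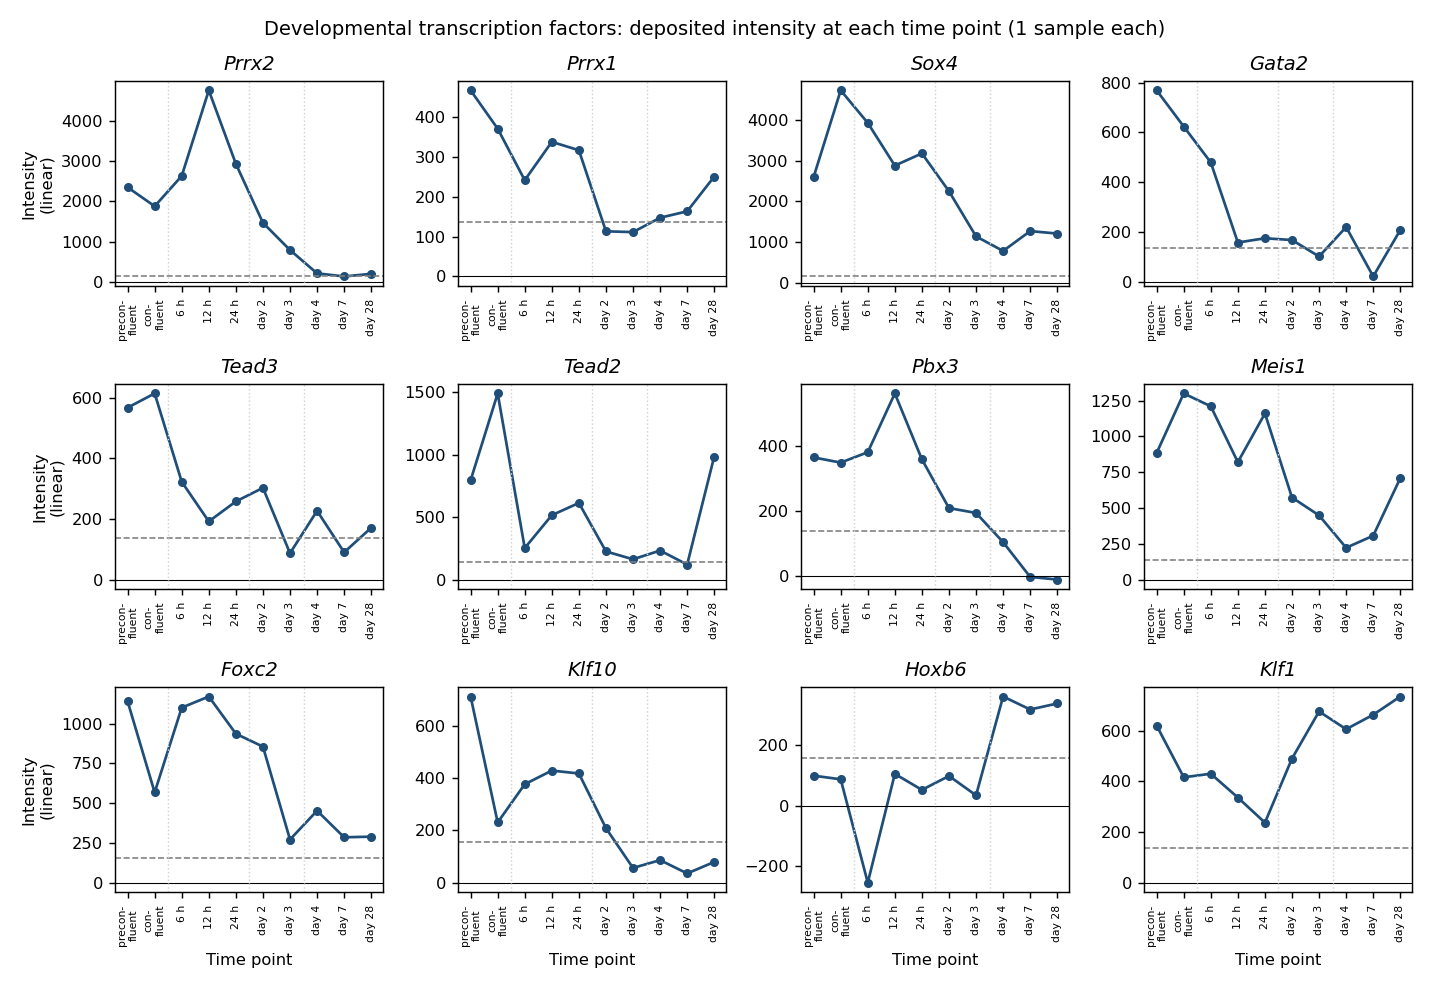
Intensity (linear, 1 sample per point) of 12 genes of the developmental families at the 10 time points, each on its own axis, with the floor dashed and the stages parted by dotted lines. Prrx2, Sox4, Pbx3 and Foxc2 are low from day 3 or 4 on, Gata2 is low from 12 hours on, and Hoxb6 is above its floor on days 4, 7 and 28 only.

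Tead factors are the DNA-binding partners of the Hippo pathway's coactivators Yap1 and Wwtr1. Tead3 read 568 and 615 in preconfluent and confluent cells, 323, 192 and 258 at 6, 12 and 24 hours, 303 and 87 on days 2 and 3, and 227, 90 and 171 on days 4, 7 and 28. No value after induction reached the values before it, and the late stage was at least 3.32-fold lower (log2 -1.76 ± 0.39, limma adjusted p = 0.0164). Early against before gave log2 -1.23 ± 0.39 (limma adjusted p = 0.296, unadjusted p = 0.00981). The call of late against before was lost without the preconfluent (limma adjusted p = 0.0809), confluent or day 7 sample. It was also lost with 0.5 times the floor (limma adjusted p = 0.0573) and without the filter (0.0787).

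Tead2 turned on 1 sample. It read 794 and 1490 in preconfluent and confluent cells, 252, 515 and 613 at 6, 12 and 24 hours, 225 and 162 on days 2 and 3, and 232, 120 and 985 on days 4, 7 and 28. The day 28 value lay between the values before induction, whereas days 4 and 7 lay below them. Late against before gave log2 -1.79 ± 0.71 (limma adjusted p = 0.14), and -2.61 without day 28 (limma adjusted p = 0.0127). Tead4 ranged between -45 and 264 with no call, and Tead1 did not pass the limit.

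Pbx and Meis proteins are the cofactors with which Hox proteins bind DNA. Pbx3 read 365 and 349 in preconfluent and confluent cells, 381, 562 and 359 at 6, 12 and 24 hours, 209 and 194 on days 2 and 3, and 104, -3 and -11 on days 4, 7 and 28. All 3 late values lay under the floor and below every earlier value. Relative to before induction, the late stage was at least 2.61-fold lower (log2 -1.38 ± 0.29, limma adjusted p = 0.0121) and at least 3.10-fold lower than early (log2 -1.63 ± 0.26, limma adjusted p = 0.0028). The first of these calls was lost without the preconfluent sample (limma adjusted p = 0.0796) or the confluent one, and with 1.5 times the floor (0.0502). Pbx2 ranged from 13 to 209 with no call.

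Meis1 read 884 and 1300 in preconfluent and confluent cells, 1210, 820 and 1160 at 6, 12 and 24 hours, 573 and 448 on days 2 and 3, and 222, 306 and 708 on days 4, 7 and 28. The late values lay below all values before induction and all early values. Relative to early, the late stage was 2.88-fold lower (log2 -1.53 ± 0.41, limma adjusted p = 0.0312). That call was lost without 6, 12 or 24 hours, day 4 or day 7, with limma adjusted p up to 0.0958, without the filter (0.14) and in a fit of only the stages compared (0.0773). Late against before gave log2 -1.56 ± 0.46 with an adjusted p just past the threshold (limma, 0.0514). Meis2 and Meis3 did not pass the limit.

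Of all tested probe sets 10.9% were called in late against before, 13.7% in late against early and 16.8% along the course. Among the 16 tested Hox genes, which set position along the body axis, 15 were called in no test. Hoxb6 was the exception, and it passed the limit only through its late values. It read 99 and 87 in preconfluent and confluent cells, -255, 105 and 52 at 6, 12 and 24 hours, 98 and 34 on days 2 and 3, and 361, 318 and 338 on days 4, 7 and 28. The 7 earlier values all lay under the floor, and the 3 late ones were close together above it. The late stage was at least 2.17-fold higher than before induction and than the early stage. These folds are descriptions and no p is given for them, since the filter admitted the gene through the late values alone and the 7 earlier ones were all set to 1 floor, which removes their spread.

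The other tested Hox genes had no shape in common. Hoxb3 had its highest values late, with 394 and 290 in preconfluent and confluent cells, 391, 316 and 198 at 6, 12 and 24 hours, 297 and 320 on days 2 and 3, and 597, 506 and 426 on days 4, 7 and 28. All 3 late values lay above all 7 earlier ones, yet late against early gave log2 0.80 (limma adjusted p = 0.119) and late against before log2 0.58 (limma adjusted p = 0.335). Hoxa13 read 216, 725, 702, 604, 219, 135, 581, 591, 654 and 196 in time order, with no stage apart from the others. Hoxc8 read between 162, at 12 hours, and 697, at 6 hours. Hoxc5 read between 44 and 484, and Hoxb5, with its highest value at 12 hours, between 286 and 880. Hoxc9 read 263, 213 and 215 on days 4, 7 and 28, against at most 212 at the 7 earlier times. Hoxa5 read 141, 63 and 22 on days 4, 7 and 28, against 229 and 221 in preconfluent and confluent cells, and Hoxd12 stayed between 415 and 665. Hoxa2, Hoxa11, Hoxa11os, Hoxb1, Hoxb7, Hoxb9 and Hoxb13 made up the rest, and none of these genes was called.

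Of 7 tested forkhead genes, Foxc2 was called in late against early and along the course, and Foxo3 along the course only. Of all tested probe sets 13.7% were called in late against early and 16.8% along the course. Foxc2, a regulator of mesenchyme and lymphatic vessels that gives mouse fat brown-like traits when overexpressed, read 1140 and 567 in preconfluent and confluent cells. It then read 1100, 1170 and 936 at 6, 12 and 24 hours, 855 and 271 on days 2 and 3, and 452, 285 and 289 on days 4, 7 and 28. The late values lay below all early ones, by 3.19-fold (log2 -1.67 ± 0.43, limma adjusted p = 0.0372). That call was lost without 6, 12 or 24 hours, day 7 or day 28, with limma adjusted p up to 0.113, and without the filter (0.139). Late against before gave log2 -1.27 ± 0.48 (limma adjusted p = 0.143), the confluent value being lower than every early one.

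Foxo3, a forkhead factor that insulin signalling keeps out of the nucleus, read 378 and 484 in preconfluent and confluent cells, 670, 582 and 542 at 6, 12 and 24 hours, 440 and 318 on days 2 and 3, and 344, 449 and 418 on days 4, 7 and 28. The 3 early values were its highest. The change along the course was called (limma adjusted p = 0.0379). Late against early gave log2 -0.57 (limma adjusted p = 0.0933) and was not called, nor was early against before (log2 0.48). The call along the course was lost in 8 of the 10 fits that left out a sample, with limma adjusted p up to 0.116. Foxd3, a factor of the neural crest, read between 618 and 909 with no call. Foxa2, Foxf1, Foxf2 and Foxn2 ranged between 12 and 557 with no call.

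The Krüppel-like genes moved in both directions. Klf10, an early-response gene of TGF-beta, read 711 and 230 in preconfluent and confluent cells, 376, 428 and 417 at 6, 12 and 24 hours, 208 and 56 on days 2 and 3, and 86, 35 and 79 on days 4, 7 and 28. The late values lay below all early ones, by at least 2.60-fold (log2 -1.38 ± 0.35, limma adjusted p = 0.0362). All late values were under the floor and so tied at it, which removes their spread and limits what this p says. For late against before the log2 change was -1.37 ± 0.40 (limma adjusted p = 0.0619).

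Klf1, known as a regulator of red blood cell genes, read 620 and 416 in preconfluent and confluent cells, 430, 336 and 237 at 6, 12 and 24 hours, 490 and 676 on days 2 and 3, and 606, 663 and 735 on days 4, 7 and 28. Its early values lay below its late ones, the late stage being 2.05-fold higher than early (log2 1.04 ± 0.30, limma adjusted p = 0.0453). The change from before induction was log2 0.39 (limma adjusted p = 0.527). The late against early calls were lost in 8 of 10 fits that left out a sample for Klf10 (limma adjusted p up to 0.108, without 12 hours) and in 7 of 10 for Klf1 (up to 0.137, without 24 hours). Klf10 was also lost with 1.5 times the floor (limma adjusted p = 0.165) and without the filter (0.129). Klf1 was also lost with 0.5 times the floor (limma adjusted p = 0.0632), without the filter (0.1) and in a fit of only the stages compared (0.0651). Klf2, a known inhibitor of Pparg expression in mouse preadipocytes, read between 115 and 621, and Klf17 between -18 and 407, neither with a call.

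Ebf factors are helix-loop-helix proteins known from B cells and fat cells. Ebf1, which promotes adipogenesis in mouse cells, read 145 and 370 in preconfluent and confluent cells, -108, 222 and 156 at 6, 12 and 24 hours, 83 and 378 on days 2 and 3, and 222, 581 and 491 on days 4, 7 and 28. Its highest values came on days 7 and 28, but late against early (log2 1.25 ± 0.50, limma adjusted p = 0.134) and late against before (log2 0.78 ± 0.56, limma adjusted p = 0.433) did not pass. Ebf2, a factor of brown fat identity in the mouse, read between 189 and 396.

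Ebf3 read 423 and 571 in preconfluent and confluent cells, 884, 776 and 504 at 6, 12 and 24 hours, 357 and 365 on days 2 and 3, and 144, 10 and 692 on days 4, 7 and 28. As with Tead2, day 28 stood apart from days 4 and 7. Late against early gave log2 -1.55 ± 0.54 (limma adjusted p = 0.0852), and -2.32 without day 28 (limma adjusted p = 0.00356). A second Ebf3 probe set did not show the low days 4 and 7 (290 and 328, against 425 and 336 in preconfluent and confluent cells).

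Maf and Mafg gave the largest positive log2 changes of early against before, with no call in either. Maf, a basic leucine zipper factor, read 243 and 1380 in preconfluent and confluent cells, 1200, 965 and 1570 at 6, 12 and 24 hours, 1000 and 910 on days 2 and 3, and 795, 737 and 584 on days 4, 7 and 28. The low point was the preconfluent sample alone. A second Maf probe set read 1720 in confluent cells against 192 in preconfluent cells. Another, on array A, read 583 in confluent cells against 324 in preconfluent cells, but was lowest on day 4 (156). Early against before gave log2 1.08 ± 0.60 (limma adjusted p = 0.708), -0.18 without the preconfluent sample (limma adjusted p = 0.987) and 2.33 without the confluent one (limma adjusted p = 0.0386).

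Mafg, a small Maf protein without an activation domain, read 287 and 185 in preconfluent and confluent cells, 735, 1000 and 322 at 6, 12 and 24 hours, 603 and 340 on days 2 and 3, and 596, 634 and -213 on days 4, 7 and 28. Early values lay above both values before induction, by 2.68-fold (log2 1.42 ± 0.68, limma adjusted p = 0.596). Mafk did not pass the limit. Of the Sox genes beside Sox4, Sox10 read between 143 and 545 and Sox11 between -106 and 235, with no call.

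Early against before, none of the 59 genes was called by limma, and 2 had an unadjusted p under 0.05, Gata2 and Tead3 (3.39%). Of all tested probe sets 0.356% were called (0.198% higher and 0.158% lower) and 9.22% had an unadjusted p under 0.05. The median log2 change of early against before was 0.00 over the 59 genes and over all tested probe sets. Of the 59, 10 (16.9%) were highest at 6 hours and 9 (15.3%) at 12 hours, against 10.8% and 8.99% of all tested probe sets. These shares were not tested.

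**Figure D3:**
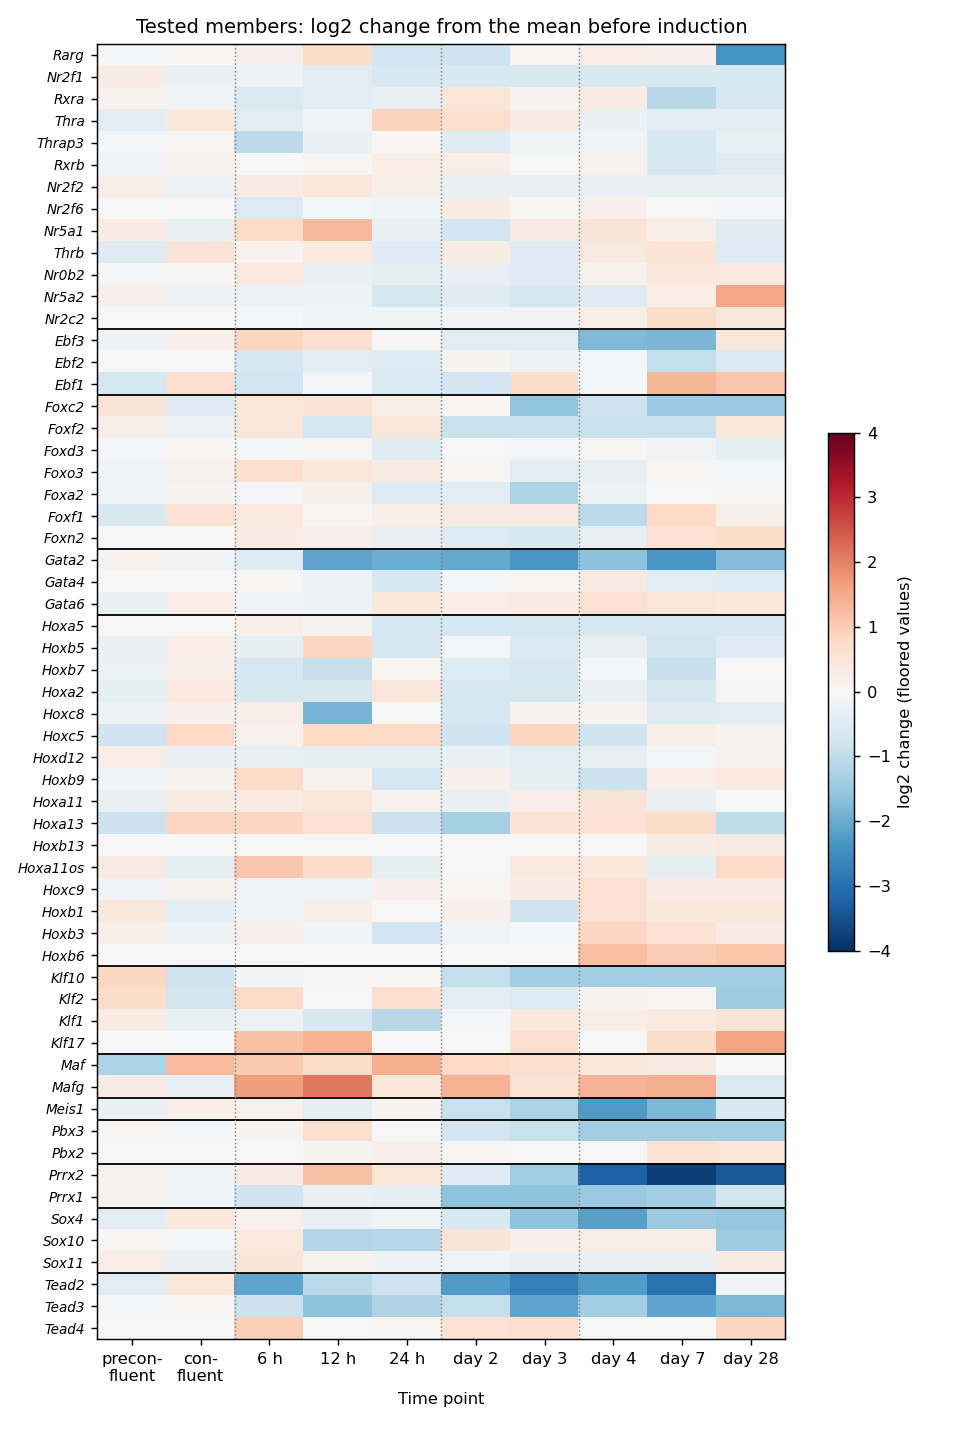
Log2 change of each tested gene at each of the 10 time points (columns, in order) from its mean before induction, after the floor was applied, with genes grouped by family and colours from -4 (blue) to 4 (red). Late columns of Prrx2, Sox4, Pbx3, Meis1 and Gata2 are blue, while most Hox and nuclear receptor rows stay near 0 (white) with single coloured cells.

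None of the 13 tested genes of the nuclear receptor group, which counts Thrap3 though it encodes no receptor, was called in late against before. Of all tested probe sets 10.9% were. In late against early 1 rose and 1 fell, beside 13.7% of all tested probe sets called. Along the course 2 of the 13 were called, beside 16.8% of all. The tested retinoid X receptor genes, Rxra and Rxrb, whose proteins are the common partners of other nuclear receptors, were called in no test. Rxra read 1050 and 820 in preconfluent and confluent cells, 616, 700 and 741 at 6, 12 and 24 hours, 1300 and 1000 on days 2 and 3, and 1170, 431 and 581 on days 4, 7 and 28. It was highest on days 2 and 4 and lowest on days 7 and 28, so the late stage overlapped the others (late against before log2 -0.48 ± 0.38, limma adjusted p = 0.483).

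Rxrb read 1680 and 2020 in preconfluent and confluent cells, 1820, 1920 and 2210 at 6, 12 and 24 hours, 2220 and 1820 on days 2 and 3, and 2090, 1180 and 1310 on days 4, 7 and 28. Here too days 7 and 28 were the lowest, with log2 -0.32 ± 0.26 for late against before (limma adjusted p = 0.505). Rxrg lay below 0 in all 10 samples and was not tested.

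Rarg, a retinoic acid receptor, read 985 and 1080 in preconfluent and confluent cells, 1200, 1690 and 602 at 6, 12 and 24 hours, 596 and 1080 on days 2 and 3, and 1240, 1180 and 198 on days 4, 7 and 28. Late against before gave log2 -0.64 ± 0.72 (limma adjusted p = 0.637), the day 28 value alone being low. A second probe set, marked by the maker as shared with related genes, read 1050 and 1330, then 995, 1150 and 784, then 510 and 578, and 450, 630 and 548. There the late stage was lower than before induction (log2 -1.14 ± 0.30, limma adjusted p = 0.0352), so the call for Rarg depends on the probe set.

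The thyroid hormone receptor genes Thra and Thrb gave weak readings. Thra ranged from -112 in preconfluent cells to 386 at 24 hours, and Thrb from 54 on day 3 to 286 on day 7. Neither was called, and in each the late values overlapped the values before induction. Thrap3 read between 826, at 6 hours, and 1770, at 24 hours, with no call.

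The orphan receptors of the COUP-TF group, which mostly repress transcription, gave the family's calls toward lower values. Nr2f2, which restrains adipogenesis in mouse cells, read 226 and 161 in preconfluent and confluent cells, 242, 259 and 223 at 6, 12 and 24 hours, 85 and 82 on days 2 and 3, and 27, 60 and 25 on days 4, 7 and 28. All values from day 2 on lay under the floor and below all earlier ones. Being tied at the floor removes their spread and limits what the p below says. The late stage was at least 1.54-fold lower than early (log2 -0.63 ± 0.16, limma adjusted p = 0.034). With the floor 1.5 times as high the change was -0.06 (limma adjusted p = 0.743), and the call was lost in 8 of 10 fits that left out a sample.

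Nr2f1 read 296 and 194 in preconfluent and confluent cells, 208, 177 and 130 at 6, 12 and 24 hours, 94 and 82 on days 2 and 3, and 58, -17 and 16 on days 4, 7 and 28. It went down nearly step by step, and every value from 24 hours on was under the floor. The change along the course was called (limma adjusted p = 0.0391) and lost in 9 of the 10 fits that left out a sample, with adjusted p up to 0.303 (limma, without the preconfluent sample). For late against before the log2 change was -0.62 ± 0.21 (limma adjusted p = 0.103). Nr2f6, of the same group, ranged between 554 and 994 and was not called.

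Nr2c2, the testicular orphan receptor TR4, was the receptor that rose. It read 563 and 562 in preconfluent and confluent cells, 534, 499 and 504 at 6, 12 and 24 hours, 515 and 509 on days 2 and 3, and 661, 944 and 764 on days 4, 7 and 28. The 3 late values lay above all 7 earlier ones, by 1.53-fold over the early stage (log2 0.61 ± 0.16, limma adjusted p = 0.037). The call was lost in 7 of 10 fits that left out a sample, with limma adjusted p up to 0.116. It was also lost with 0.5 times the floor (limma adjusted p = 0.0709), without the filter (0.0509) and in a fit of only the stages compared (0.0723). The other 2 probe sets, on array A, gave log2 0.08 and 0.14 for late against early with no call, so the rise rests on 1 of 3 probe sets.

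Nr5a2, the liver receptor homolog LRH-1, was at or under 270 at 9 times and 658 on day 28. Its values were 260 and 195 in preconfluent and confluent cells, 191, 194 and 96 at 6, 12 and 24 hours, 160 and 139 on days 2 and 3, and 157, 270 and 658 on days 4, 7 and 28. The call along the course (limma adjusted p = 0.00965) was lost without day 28 (limma adjusted p = 0.231), and a second tested probe set gave limma adjusted p = 0.573. Nr5a1, known as steroidogenic factor 1, read between 418 and 1780, with its highest value at 12 hours, and was not called. A second Nr5a1 probe set, on array B, stayed between 68 and 148, under the limit. Nr0b2, a receptor without a DNA-binding domain known as SHP, read between 372 and 715, highest on day 7, with no call.

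**Figure D4:**
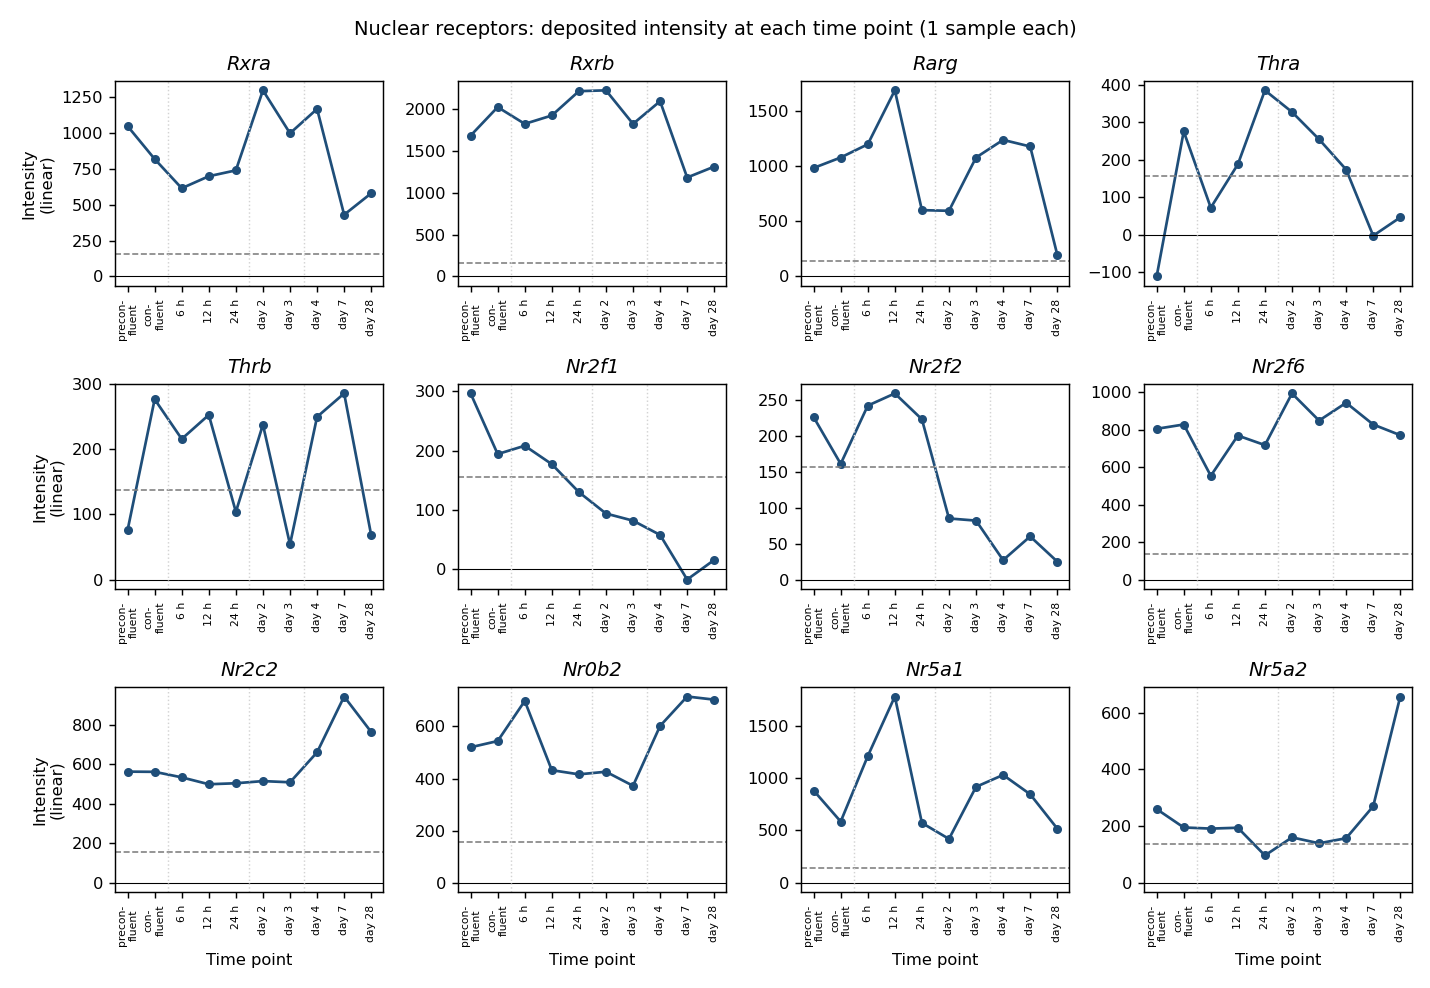
Intensity (linear, 1 sample per point) of 12 tested nuclear receptor genes at the 10 time points, each on its own axis, with the floor dashed. Rxra and Rxrb are lowest on days 7 and 28, Nr2f1 and Nr2f2 sink under the floor, Nr2c2 is highest on day 7 with 944 and Nr5a2 on day 28 with 658.

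Several named genes have more than 1 tested probe set, and these did not always move alike. Both Sox4 probe sets and the pair of Maf probe sets on array B had the same shape, whereas those of Rarg, Nr2c2, Nr5a2 and Ebf3 differed in the late stage. The Maf probe set on array A was lowest on day 4, the pair on array B in preconfluent cells. For Thrap3, a second probe set gave log2 -1.87 ± 0.80 for late against before (limma adjusted p = 0.174). In all, 20 of the 108 genes have at least 2 probe sets. Of the 59 tested genes, 43 were read by a probe set whose name carries the maker's suffix for probes that may match more than 1 transcript. None was read by a probe set with the suffix for a gene family.

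**Figure D5:**
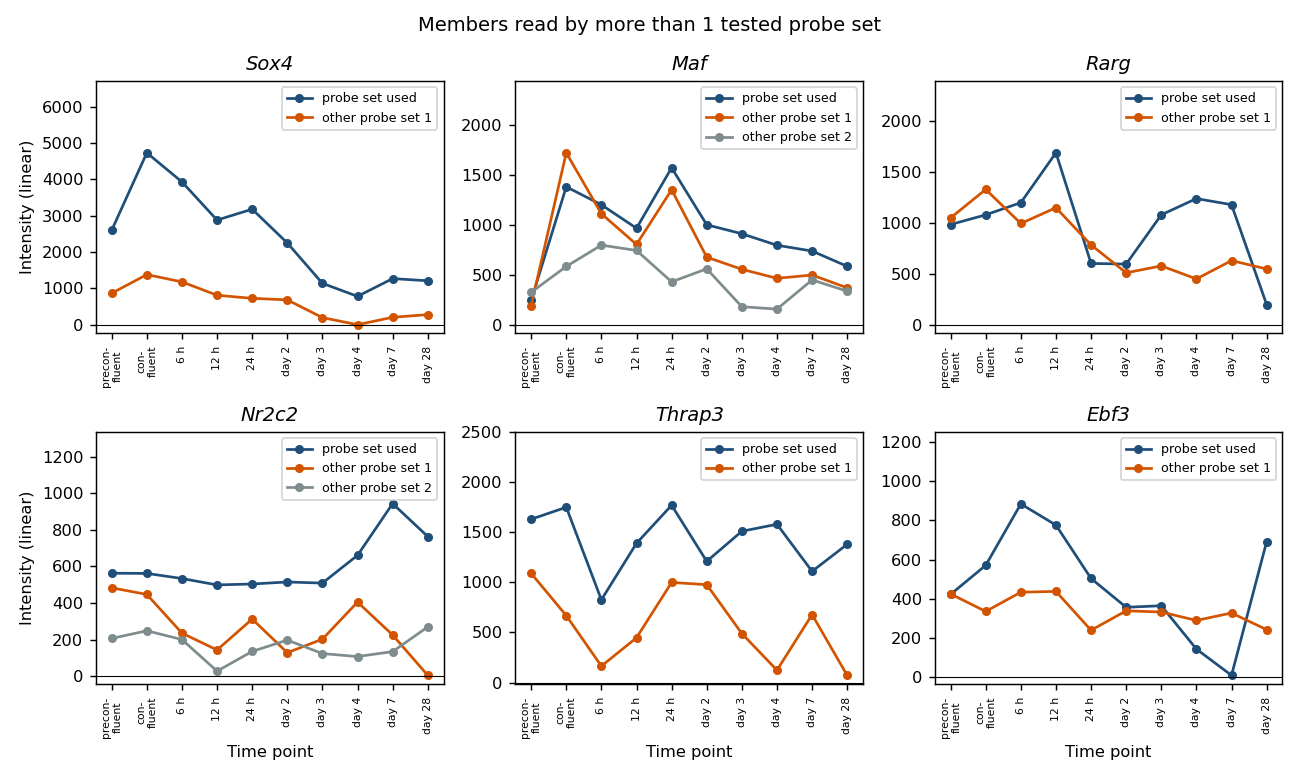
Intensity (linear) at the 10 time points from each tested probe set of Sox4, Maf, Rarg, Nr2c2, Thrap3 and Ebf3, with the one used in blue. The Sox4 curves fall together to 782 and 2 on day 4, while the Rarg curves part from day 3 on and only 1 Nr2c2 curve climbs, to 944 on day 7.

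The 49 genes that did not pass the limit comprised 41 that never exceeded it and 8 that did so at 1 time point, the highest being 290 for Nr6a1 at 12 hours. Among nuclear receptors they were Nr0b1, Nr1d2, Nr1h4, Nr1i3, Nr2c1, Nr3c1, Nr4a2, Nr6a1 and Rxrg. Nr3c1, the glucocorticoid receptor on which dexamethasone acts, read between -26 and 115 and so has only a bound here. The forkhead genes were Foxa1, Foxa3, Foxb1, Foxb2, Foxd1, Foxd4, Foxj1, Foxk1, Foxk2, Foxl1, Foxn1 and Foxp1. The Hox genes were Hoxa4, Hoxa6, Hoxa7, Hoxa9, Hoxa10, Hoxb4, Hoxc4, Hoxc6, Hoxd1, Hoxd11 and Hoxd13, none of which read above 136. The rest were Sox1, Sox2, Sox3, Sox5, Sox6, Sox13, Sox15, Sox17, Sox18, Gata1, Gata3, Gata5, Klf3, Mafk, Meis2, Meis3 and Tead1. A value below 0 at all 10 times was found in 11 of the 49. A reading under the limit on these arrays does not show that a gene is silent.

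Genes that work with these factors were read in the same fits, from lists drawn up with earlier results of these data known. In late against before, 5.82% of all tested probe sets were called higher and 5.1% lower, shares to set beside the counts of each list. Of 7 other nuclear receptor genes tested, 2 rose in the late stage relative to before induction and none fell. Pparg read 102 and 68 in preconfluent and confluent cells, -38, 17 and 267 at 6, 12 and 24 hours, 894 and 1410 on days 2 and 3, and 1640, 1210 and 1180 on days 4, 7 and 28. It lay under the floor up to 12 hours and was at least 9.69-fold higher late than before (log2 3.28 ± 0.37, limma adjusted p = 0.000676). Rora, an orphan receptor known from circadian rhythm, rose at least 2.97-fold (log2 1.62 ± 0.31, limma adjusted p = 0.0138).

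Of 6 tested coregulator genes, 1 was called in late against before: Ncoa4, a coactivator also known for ferritin turnover, which rose 2.95-fold (log2 1.56 ± 0.31, limma adjusted p = 0.00966). Of 5 tested genes of retinoid handling, 1 was called in late against before. It was the alcohol dehydrogenase gene Adh1, at least 3.98-fold higher in the late stage (log2 1.99 ± 0.49, limma adjusted p = 0.0266). Rbp4 of this list was called along the course only (limma adjusted p = 0.0297). Of 8 tested targets of the liver X receptors, 7 were higher late than before and none lower (of all tested probe sets 5.82% were higher), with a median log2 change of 1.74 against -0.05 over all tested probe sets. They were the sterol transporters Abca1 (3.01-fold) and Abcg1 (2.49-fold), Apoc1 (at least 13.6-fold), Lpcat3 (2.18-fold) and the lipid synthesis genes Scd1, Scd2 and Fasn. They did not move at the same times: Scd1 was called in early against before (6.22-fold, limma adjusted p = 0.00895), while Apoc1, whose probe set may also bind related genes, lay under the floor up to day 2. Outside the late stage Apoc1 exceeded the limit on day 3 only (185). It thus passed only through its late values and had to differ, so its place among the 7 and its fold are descriptions. Pltp, a phospholipid transfer gene, was not called in late against before (log2 -0.37, limma adjusted p = 0.885). It was called along the course (limma adjusted p = 0.00128), reading 1980 in confluent cells, 71 on day 3 and 2940 on day 28. Apoe lay below 0 at all times.

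Of 11 tested genes of the glucocorticoid response, Hsd11b1 rose and Gadd45b fell in late against before. In late against early Hsd11b1 rose and 3 fell: Sgk1, Gadd45b and the phosphatase gene Dusp1, the last by 4.82-fold (log2 -2.27 ± 0.55, limma adjusted p = 0.0302). Of all tested probe sets 7.16% were higher and 6.54% lower in that comparison. Along the course 7 of the 11 were called, against 16.8% of all tested probe sets. The median log2 change of this list was 1.69 in early against before, with no gene called, and -1.26 in late against early. Over all tested probe sets these medians were 0.00 and -0.05.

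Of 5 tested genes of the Hippo pathway and TEAD targets, 3 fell in late against before and none rose (of all tested probe sets 5.1% were lower), with a median log2 change of -1.05 against -0.05 over all tested probe sets. Yap1, the coactivator that Tead proteins bind, read 470 and 301 in preconfluent and confluent cells, 577, 510 and 404 at 6, 12 and 24 hours, 345 and 220 on days 2 and 3, and 197, 197 and 146 on days 4, 7 and 28. All late values lay below all earlier ones (late against before log2 -1.05 ± 0.28, at least 2.06-fold lower, limma adjusted p = 0.0486). The receptor tyrosine kinase gene Axl was 2.21-fold lower (limma adjusted p = 0.0309) and Mob1a, a Hippo kinase cofactor, 2.24-fold lower (limma adjusted p = 0.0345). Wwtr1 (late against before log2 0.06) and Amotl2 (log2 -0.23) were not called. Ccn1 and Ccn2, also on this list, did not pass the limit and were not tested. Of 7 tested genes of FOXO targets and insulin signalling, Ccng2, a known FOXO target, rose 3.43-fold (limma adjusted p = 0.0472) and the kinase gene Akt1 fell 1.85-fold (limma adjusted p = 0.0108). The others were not called: Cdkn1b (log2 -0.98), Igfbp1 (-0.59) and G6pc (-0.23) lay below 0, and Akt2 (1.24) and Pik3r1 (0.86) above. The median log2 change of this list was -0.23. Among 9 genes listed as core adipogenic factors, Pparg, Cebpa and Nr4a1 were higher and Klf4 lower in late against before. Unlike Pparg and Cebpa, Nr4a1 was highest at 6 hours (5730). It was called higher in early against before (8.35-fold, limma adjusted p = 0.0178) and lower in late against early (2.48-fold, limma adjusted p = 0.0312).

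Markers of other cell types were read beside these results. All 9 tested adipocyte markers rose, with a summed level of 129110 to 152250 in late samples against 2994 to 10743 before induction. Among them, Slc2a4 exceeded the limit outside the late stage on day 3 only (540). It thus passed only through its late values and had to differ. Of 10 preadipocyte and fibroblast markers 3 fell, with a summed level of 35393 to 64073 late against 68422 to 95435 before. The sums of macrophage markers were 2806 to 4586 late against 5362 to 5431 before (2 of 5 lower), of muscle markers 4126 to 4928 against 4228 to 4594 (1 of 5 higher), and of endothelial markers 1329 to 1685 against 1442 to 1448 (1 of 3 higher). The muscle marker called was Des, which passed the limit only through its late values and so had to differ. Of these lists, Adgre1, Csf1r, C1qa, Acta1, Tnnt3, Tnni2, Pecam1, Cdh5, Tie1 and Flt1 never exceeded the limit. Others read above it throughout: Ptprc 1000 to 1720 and Cd14 1000 to 2470 among macrophage markers, Ckm 1830 to 3670 and Myog 323 to 906 among muscle markers, and Kdr 538 to 1010 and Icam2 372 to 791 among endothelial ones. The sum of brown fat markers was 609 to 7840 late against 153 to 257 before. Cox8b read 1910 and 6610 on days 7 and 28, and the late stage was at least 9.36-fold higher than early. It passed the limit only through these late values, and its values before day 4 were all under the floor. Its fold is thus a description and no p is given. Cidea read 964 on day 28, and Ucp1 never exceeded the limit. Elovl3, also of this list, read between 118 and 300 with no call (late against before log2 0.19, limma adjusted p = 0.734). The brown fat sum on day 28 was thus mostly Cox8b. The 3′ to 5′ ratio of Gapdh on array A, a sign of RNA and labelling quality, was 0.992 to 1.14 late, 1.43 to 1.61 early and 0.986 to 1.33 before induction, and that of beta-actin was 1.29 to 1.41 late and 1.05 to 1.48 before. On array B, which reads Prrx2, Sox4, Foxc2 and Hoxb6, the beta-actin ratio was 0.955 to 1.05 late and 0.824 to 0.872 before, with no overlap. The Gapdh ratio there was 0.737 to 0.773 late and 0.788 to 0.815 before, again with no overlap. The part of cell makeup or RNA quality in the changes was not tested.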

How the data were processed

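Total RNA of 3T3-L1 cells was hybridised to 2 Affymetrix array types, 1 sample per time point and type, 20 arrays in all. The deposited values are linear intensities per probe set, made by the authors after the maker's technical manual, per the labels' protocols. The software is not given in the sources used here. Trimmed means (2% off each end) were 500.9 to 501.1 on every array, so the deposited scaling was kept. For each array type, values were floored at minus its 10th percentile (137 and 156) and put on the log2 scale. The limit was the larger of floor and median. It kept 7582 of 13179 probe sets, 110 of which are controls. Names came from probe sets with 1 symbol in the platform annotation, and 6 probe sets with several symbols of these families were left out.

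limma 3.58.1 in R 4.3.3 fitted 4 stage means per array type, and a natural spline (cubic, 3 degrees of freedom) over the order of times, tested by F. The stage fit was tested on simulated data, for late against before only, and the spline test was not. Alternatives changed floor, filter, normalization, stages in the fit, spline and samples. The members, gene lists and tests were chosen with earlier results of these data known. Text names every gene called, every tested nuclear receptor, each family's highest-mean and widest-range gene, the 5 largest rises and falls per contrast, and called genes of the lists. Promoter sequences are from RefSeq (GRCm38.p6), which held 75 of the 108 genes. With intensities, the number of arrays limits the precision.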

Additional observations from a re-analysis of the deposited data

How the results depend on the processing

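Of 29 calls in the named genes, 8 held under every alternative: Prrx2 in 3 tests, Pbx3 in late against early and along the course, Sox4 along the course, and Hoxb6 in late against before and late against early. The last 2 say nothing about stability, since Hoxb6 entered through its late values and its 7 earlier ones are tied at the floor. For Pbx3 the 3 late values are tied at the floor, which removes their spread and limits what its calls say. No called value changed sign. Without the filter on low values, which raises the number of tests, the calls went down to 3 (late against before, 7 as reported), 4 (late against early, 10) and 6 (along the course, 12). Leaving out each sample in turn gave 3 to 10 calls in late against before, 0 to 1 in early against before, 4 to 11 in late against early and 6 to 11 along the course. With 1 of the samples before induction left out, the other is taken to have the spread of the remaining stages. Other floors, quantile normalization, only the stages compared, a 2 degree spline and a straight line gave counts within 1.5 times those reported, but not always of the same genes. At 0.5 times the floor, late against before shared 4 of 7 calls, late against early 8 of 10 (Klf1 and Nr2c2 lost, Nr2f1 gained) and the course 9 of 12 (Foxc2, Foxo3 and Tead3 lost, Klf10 and Nr2f2 gained). At 1.5 times the floor, Pbx3 was lost in late against before, Klf10 and Nr2f2 in late against early, and Hoxb6, Nr2f1 and Prrx1 along the course, where Ebf3 was gained. With only the stages compared, Prrx1 and Sox4 were lost in late against before, and Klf1, Meis1 and Nr2c2 in late against early. Quantile normalization lost Foxc2, Nr2f1, Prrx1 and Tead3 along the course only. There the 2 degree spline shared 9 and the straight line 7 of the 12 calls. Without the preconfluent sample, early against before turned to -0.23 for Hoxc5 and -0.18 for Maf, neither called, against 1.40 and 2.33 without the confluent sample, where Maf was called. Causes beyond these were not tested. No paired analysis was possible because each time point has 1 sample and the labels carry no replicate numbers. Signals near the floor limit what can be seen for Hoxb6, Pbx3, Klf10, Nr2f1, Nr2f2 and the 49 untested genes.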
